A study of Homo sapiens with 24 samples.

Results

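The genes described here encode the cyclins and cyclin-dependent kinases (CDKs) that act from G1 into S phase: the D-type cyclins CCND1, CCND2 and CCND3, their kinases CDK4 and CDK6, the kinase CDK2, the E-type cyclins CCNE1 and CCNE2, and the A-type cyclin CCNA2. They were chosen by function and not by a measured value, although earlier results of these data were known. They are 9 of the 19663 nuclear protein-coding genes of the annotation that have a transcript of the protein-coding type. Trimethylation of lysine 4 of histone H3 (H3K4me3) was profiled by MINT-ChIP with 500000 cells per sample, a ChIP-seq protocol that barcodes the chromatin of each sample and pools it ahead of the antibody step. The cells were EndoC-βH3, a human beta cell line of fetal origin that carries hTERT and SV40 large T antigen, both of which a tamoxifen-activated Cre recombinase (CreER) removes. The 4 non-senescent samples were controls labelled WT, and the 4 senescent samples, of the same line and genotype label, had received 4-hydroxytamoxifen (4-OHT) for 3 weeks. The labels give the dose as 1 mM, whereas the methods of the study give it in the micromolar range. Another 16 samples of the same experiment, for H3K27me3 and H3K9me3, were not used here.

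D-type cyclins bind CDK4 or CDK6 in G1, and these complexes start the phosphorylation of the retinoblastoma protein, which restrains E2F transcription factors. Cyclin E with CDK2 carries the phosphorylation further at entry into S phase, and cyclin A with CDK2 acts during S phase. H3K4me3 marks nucleosomes around the start sites of active and poised genes, and its level is not a measure of the amount of RNA.

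Each value is the authors' mean normalised count of a region over all 8 H3K4me3 samples, senescent and non-senescent together. Such a pooled mean has no value per sample and no SD, so the spread between samples cannot be set beside any difference between genes, and senescent and non-senescent cells were not compared. Regions differ in width, and levels of different genes were therefore compared per kb of region. A region belonged to a gene if it overlapped 2 kb either side of the start site of any protein-coding transcript of that gene, and the one with the highest mean normalised count was its main region. Main regions were found for 14568 genes, 74.1% of those with a transcript of the protein-coding type, and are referred to here as promoters. Among the genes of the G1 and S phase, 7 of 9 had at least 1 region and 11 regions were listed in all.

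The beta cell identity of the line was examined with the same table. Of 17 beta cell markers, 16 had a main region, with a median of 25.1 mean normalised counts per kb against 19.0 for all promoters and a summed mean normalised count of 3839. The highest levels per kb were 51.6 at INSM1 and 38.1 at ISL1, both transcription factors of endocrine cells, and the lowest were 7.56 at IAPP and 8.81 at G6PC2, which encode islet amyloid polypeptide and an islet glucose-6-phosphatase. The insulin gene INS stood at 14.0 per kb, and the level of MAFA, which had no listed region, was not analysed here. Main regions of 11 of the 16 held the canonical start site, and those of INSM1 and INS were among the 5 that did not. Acinar markers were the lowest of the lists with more than 1 region: 3 of 4 had a region, none above 6.59 per kb, and their summed mean normalised count was 6.73. Mesenchyme (COL1A1) and endothelium (PECAM1) each had a region for 1 of 3 markers, at 6.28 and 15.3 per kb. The 1 of 3 leukocyte markers with a region was CD68, at 31.9 per kb. None of these last 3 regions held the canonical start site of its gene. Alpha cell markers had regions at 3 of 4 genes with a median of 20.6 per kb, delta cell markers at 3 of 3 with 12.2, duct markers at 3 of 3 with 9.86, and the PP cell marker PPY at 0 of 1. Summed mean normalised counts were 199.7, 187.3 and 86.6 for alpha, delta and duct markers. The single regions of CD68, PECAM1 and COL1A1 had 97.1, 17.6 and 4.37. Such sums depend on the number and width of regions.

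Per kb of main region, the order from high to low was CCND3, CCNA2, CDK2, CDK4, CCNE1, CDK6 and CCNE2. The highest was 3.88 times the lowest. The first place of CCND3 rests on a region 108042 bp upstream of its canonical start site that it shares with TAF8: with the region nearest the canonical start of each gene, CCND3 came last at 10.8 per kb, CCNA2 came first, and the highest was 2.41 times the lowest. The median of the 7 genes was 17.9 mean normalised counts per kb, against 19.0 for all promoters, whose quartiles were 12.4 and 26.8. CCND3, CCNA2 and CDK2 lay above the median promoter, and 4 genes lay below it. Since no spread is known, no neighbours in this order can be said to differ. The order is that of means pooled over senescent and non-senescent cells, and the order within either group alone is not known. As to the promoters next in level, CCNA2 lay between SERTAD1 and SBDS, all at 26.0 per kb.

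**Figure D1:**
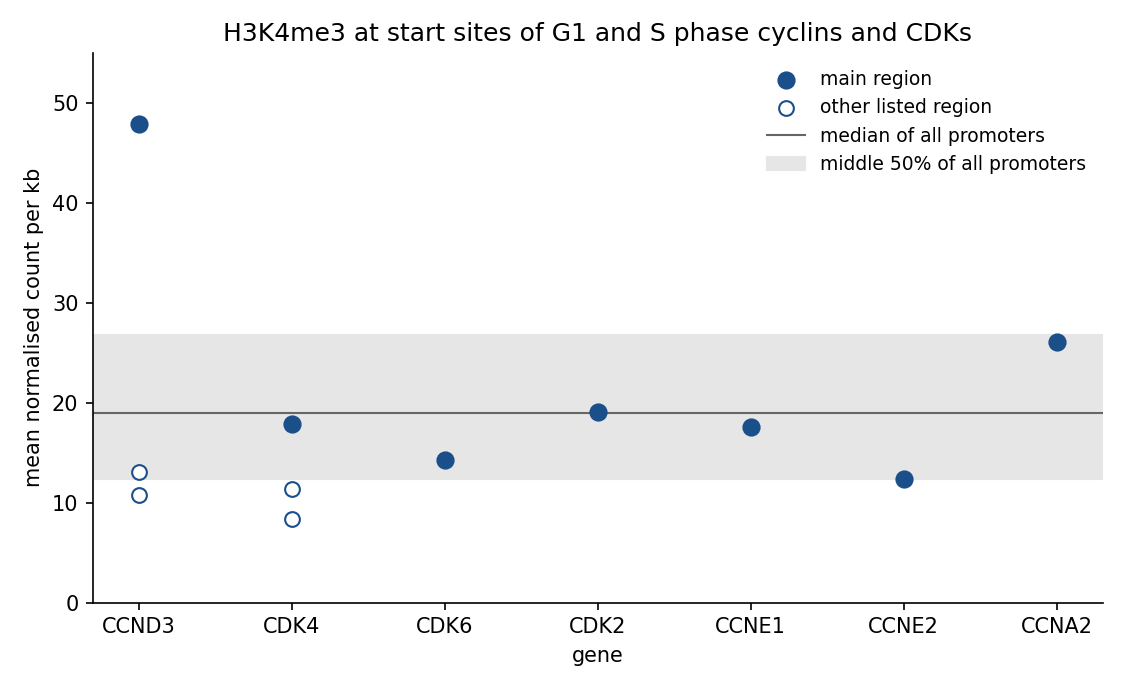
Mean normalised count per kb of each listed H3K4me3 region for the 7 genes with a region, as pooled means over 8 samples with no error. Filled points are main regions and open points other regions, the line is the median of all promoters (19.0) and the band spans their quartiles (12.4 to 26.8). The main region of CCND3 lies far above the band, and its other regions, at 13.0 and 10.8, lie near the lower edge of the band.

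**Figure D2:**
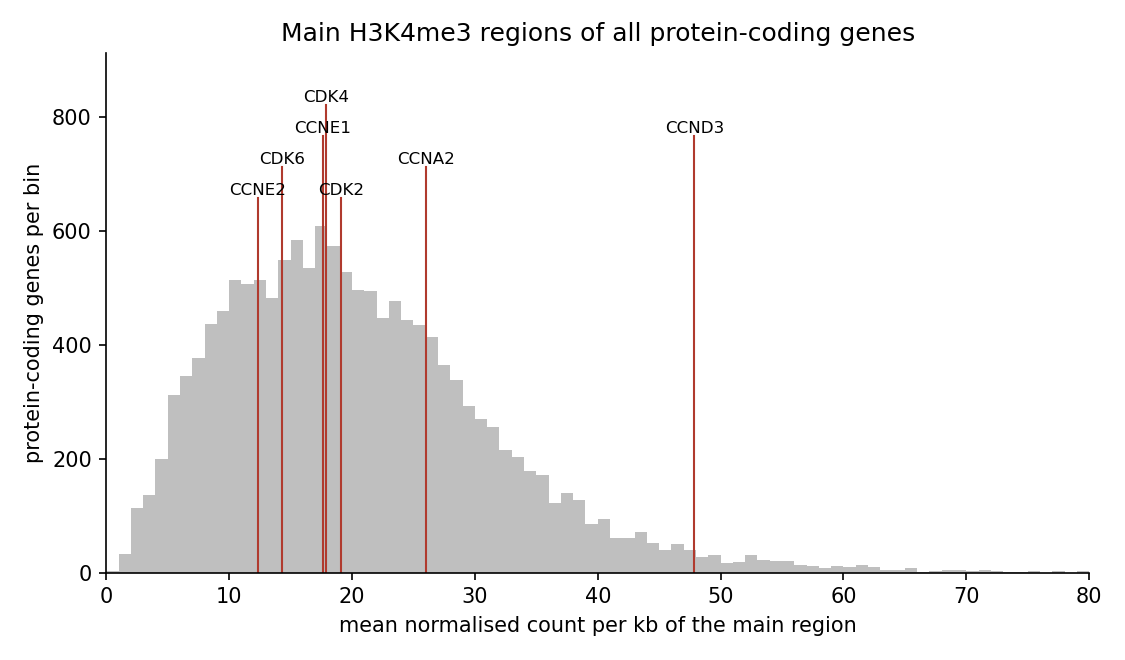
Distribution of the mean normalised count per kb over the main regions of 14568 protein-coding genes (grey, genes per bin), with the 7 cell cycle genes as red lines. Lines from CCNE2 (12.3) to CDK2 (19.1) stand in the bulk of the distribution, CCNA2 (26.0) on its right shoulder and CCND3 (47.9) in its tail. The axis ends at 80, and 13 promoters lie beyond it.

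Upstream sequences of 4 start sites are shown because the H3K4me3 regions covered the canonical start sites of CCNA2 and CCND3 but began downstream of those of CDK6 and CCNE1. Each is the 250 bases before a RefSeq start site, GRCh38.p14, read 5′ to 3′, and capitals mark GC boxes (GGGCGG) and CCAAT boxes on either strand.
CCNA2, chr4:121823884-121824133, minus strand: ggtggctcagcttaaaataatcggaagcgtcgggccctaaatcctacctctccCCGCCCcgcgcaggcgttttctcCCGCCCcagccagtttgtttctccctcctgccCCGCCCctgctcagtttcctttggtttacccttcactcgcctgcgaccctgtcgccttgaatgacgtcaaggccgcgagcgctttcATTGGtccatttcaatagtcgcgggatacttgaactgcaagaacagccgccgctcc
CCND3, chr6:41941809-41942058, minus strand: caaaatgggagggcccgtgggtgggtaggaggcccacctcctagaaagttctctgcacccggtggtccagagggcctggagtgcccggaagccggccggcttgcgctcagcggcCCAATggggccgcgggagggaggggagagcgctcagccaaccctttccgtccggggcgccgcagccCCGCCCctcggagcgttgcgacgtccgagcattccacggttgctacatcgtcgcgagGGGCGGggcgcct
CDK6, chr7:92836574-92836823, minus strand: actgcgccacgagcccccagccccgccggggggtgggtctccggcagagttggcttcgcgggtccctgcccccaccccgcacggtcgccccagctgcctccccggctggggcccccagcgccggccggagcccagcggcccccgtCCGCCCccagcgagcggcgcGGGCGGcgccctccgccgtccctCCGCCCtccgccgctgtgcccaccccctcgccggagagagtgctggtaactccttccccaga
CCNE1, chr19:29811741-29811990, plus strand: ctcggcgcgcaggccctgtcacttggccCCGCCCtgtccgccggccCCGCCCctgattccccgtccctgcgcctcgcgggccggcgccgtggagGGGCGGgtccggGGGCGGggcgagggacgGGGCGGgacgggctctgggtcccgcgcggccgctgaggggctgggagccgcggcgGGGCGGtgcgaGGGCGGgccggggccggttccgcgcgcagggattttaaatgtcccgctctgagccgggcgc

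The RefSeq promoter windows, 250 bases before to 50 bases after a start, covered 5 of the 9 genes with 8 start sites (CCNA2, CCND3, CDK6, CDK4 and CCNE1). CCND1, CCND2, CDK2 and CCNE2 had no symbol match in the set of windows used here, which says nothing about their start sites in RefSeq. The CCNA2 window held 3 GC boxes and 1 CCAAT box, the latter from position -56 to -52 relative to the start. The CCNE1 window held 7 GC boxes, more than any other window of these genes, and had a GC content of 81.0%. GC boxes occurred 4 times in the window at the canonical start of CCND3 and 3 times each at the canonical starts of CDK6 and CDK4. Of the other windows, the far upstream one of CCND3 held 5 GC boxes, and the downstream ones of CCND3 and CDK6 held 0. CCAAT boxes occurred once each in the canonical and the downstream window of CCND3. In all, 6 of the 8 windows held a GC box and 3 of 8 a CCAAT box, and over 35116 RefSeq promoter windows the shares were 45.0% and 34.6%. Windows of the same gene are not independent, and these shares were not tested against each other. Exact matches to E2F words (TTTCCCGC, TTTCGCGC, TTTGCCGC, TTTGGCGC) and to the cell cycle homology region (CHR; TTTGAA or TTCGAA) were also sought on both strands, and none of the 8 windows held one. The shares over all windows were 3.31% and 16.4%. With only 8 windows, no difference from such shares can be drawn, and variants of these words were not sought. An absent match says only that these letters were not in the window.

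Among the D-type cyclins, only CCND3 had regions at its start sites in the table used here. CCND3 is one of the G1 partners of CDK4 and CDK6. Its main region, chr6:42049850-42051896 (hg38), had a mean normalised count of 97.9 over 2046 bp, or 47.9 per kb, higher than 97.7% of promoters. That region lay 108042 bp upstream of the canonical start site, outside the canonical transcript, and held 1 of the 11 CCND3 start sites together with a start site of TAF8, a subunit of the general transcription factor TFIID that is read in the opposite direction. The signal of this region cannot be divided between CCND3 and TAF8. The region around the canonical start, chr6:41940048-41943029, had a lower level, with a mean normalised count of 32.2, or 10.8 per kb, higher than 19.4% of promoters. It held 5 CCND3 start sites and covered 573 exonic bases, 414 of them coding, and 1187 intronic bases. The last region, chr6:42048210-42049389, held the remaining 5 start sites and had a mean normalised count of 15.4, or 13.0 per kb. The TAF8 region thus carried 67.3% of the mean normalised count listed for CCND3, the canonical region 22.1% and the last 10.6%.

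CCND1 and CCND2 had no listed region within 5 kb of a start site. The nearest listed regions lay 31965 bp from a CCND1 start and 12896 bp from a CCND2 start. Whether the table used here lists every region found in these samples is not known. The levels of CCND1 and CCND2 were not analysed here, and nothing is drawn from this about H3K4me3 at these genes.

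CDK4, the kinase of D-type cyclins together with CDK6, had 3 regions. The main region, chr12:57750956-57753821, held 8 of its 9 start sites, the canonical one included. Its mean normalised count was 51.2 over 2865 bp, or 17.9 per kb, higher than 45.5% of promoters. It reached 1511 bp upstream and 1354 bp downstream of the canonical start and covered 643 exonic and 711 intronic bases. The other 2 regions lay upstream and were smaller. chr12:57755979-57756771, with the remaining CDK4 start site, had a mean normalised count of 8.999 (11.4 per kb), and chr12:57754243-57755106, which held a start site of the ubiquitin ligase gene MARCHF9, had 7.26 (8.41 per kb).

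CDK6 had 1 region at its start sites, chr7:92831990-92836188, and it did not reach the canonical start. It began 385 bp downstream of that start and extended to 4583 bp downstream, over the other annotated start site of the gene. The mean normalised count was 59.9 over 4198 bp, or 14.3 per kb, higher than 31.4% of promoters, and the region was wider than 83.9% of main regions. All of it lay within the canonical transcript, with 600 exonic and 3598 intronic bases. The RefSeq window of 300 bases at the canonical CDK6 start, whose first 250 bases are shown above, had a GC content of 78.0% and lay 336 bp from this region. CDK6 was also the gene with the most regions away from its start sites: 15 further regions lay along its 231652 bp, 5 of them with a mean normalised count of at least 10. Per kb, the levels at chr7:92607682-92609495 (18.0) and chr7:92768452-92769617 (15.8) were above that of the main region. No start site of an annotated gene lay in any of the 15.

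**Figure D3:**
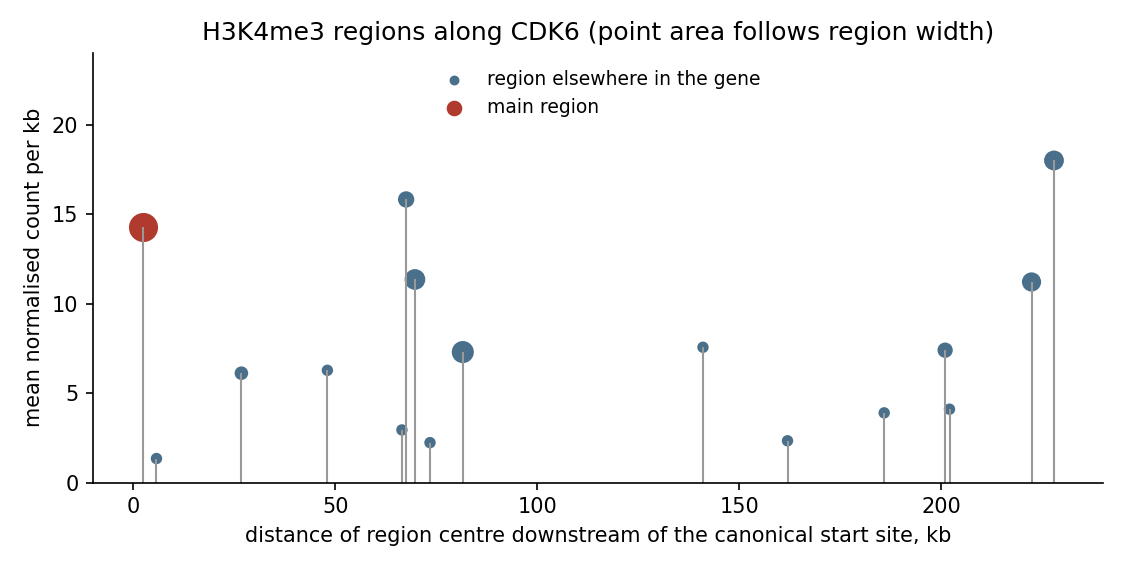
Mean normalised count per kb of the H3K4me3 regions along CDK6 against the distance of each region's centre downstream of the canonical start site, in kb. The red point is the main region (14.3 per kb), blue points are the 15 other regions and point area follows region width. Groups of regions stand near 70 kb and beyond 200 kb, and the highest blue point (18.0 per kb) is the one farthest from the start.

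CDK2, the partner of cyclins E and A, had 1 region, chr12:55965799-55968546, which held all 3 of its start sites. The mean normalised count was 52.5 over 2747 bp, or 19.1 per kb, at the middle of the promoters (higher than 50.3%). The region reached 1031 bp upstream and 1716 bp downstream of the canonical start and covered 494 exonic bases, 315 of them coding, and 1223 intronic bases. A start site of PMEL, a melanosome matrix protein gene read in the opposite direction, lay 94 bp from the canonical CDK2 start in the same region, so the signal cannot be divided between them. The next region, chr12:55972280-55976699, had a mean normalised count of 85.1 (19.3 per kb), held start sites of PMEL and of the endosomal GTPase gene RAB5B, and overlapped the 3′ part of CDK2. It would become the main CDK2 region if starts of non-coding transcripts of the gene were also used.

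The E-type cyclins activate CDK2 at the G1/S transition, and their regions differed most in width. CCNE1 had the narrowest main region of the 7 genes and CCNE2 the widest, with a ratio of 5.31. The CCNE1 region, chr19:29812717-29813659, had a mean normalised count of 16.6 over 942 bp, or 17.6 per kb, higher than 44.2% of promoters. It held none of the 4 CCNE1 start sites: it began 726 bp downstream of the canonical start and 63 bp from the nearest start, and covered 128 coding and 814 intronic bases. The CCNE2 region, chr8:94893088-94898086, had a mean normalised count of 61.6 over 4998 bp, or 12.3 per kb, higher than 24.8% of promoters but wider than 91.0% of them. It held 3 of 4 CCNE2 start sites and reached 2885 bp upstream and 2113 bp downstream of the canonical one. A start site of NDUFAF6, a complex I assembly factor gene read in the opposite direction, lay 566 bp from the canonical CCNE2 start in the same region. The signal and the width of this region therefore cannot be divided between CCNE2 and NDUFAF6.

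CCNA2, the A-type cyclin of S phase, has a single protein-coding start site, and its region chr4:121821686-121825434 held no start site of another gene. The mean normalised count was 97.6 over 3748 bp, or 26.0 per kb, higher than 72.9% of promoters. It reached 1551 bp upstream and 2197 bp downstream of the start and covered 712 exonic bases, 457 of them coding, and 1485 intronic bases. Among regions that hold the canonical start site of one of these genes, this was the highest level per kb, followed by CDK2, CDK4, CCNE2 and CCND3.

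**Figure D4:**
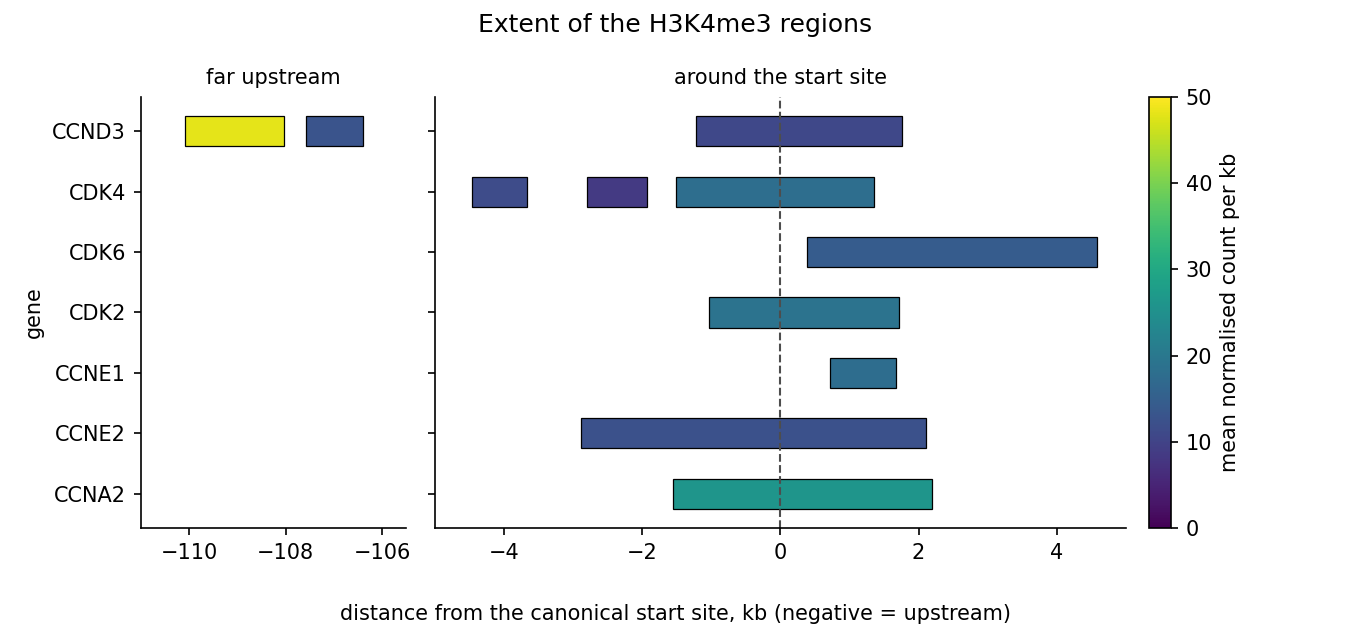
Extent of each listed H3K4me3 region relative to the canonical start site (dashed line, 0 kb), drawn in the direction of transcription and coloured by mean normalised count per kb. Regions of CDK6 and CCNE1 begin 385 and 726 bp downstream of the line, whereas the main regions of CDK2, CDK4, CCNE2 and CCNA2 and 1 other region of CCND3 span it. The left panel holds the main region of CCND3 and its other far upstream region.

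The canonical start site lay within the main region for 4 of the 7 genes (CDK4, CDK2, CCNE2 and CCNA2), against 66.2% of all promoters. Of the 39 protein-coding start sites of the 9 genes, 28 lay in a listed region and 17 in a main region. CCND3 had 11 of these sites and CDK4 had 9. The share over the start sites of all genes was not computed, so the count says nothing about these genes as a group. The main regions had a median width of 2865 bp against 2497 bp for all promoters. Base composition, which the choice of regions did not use, varied among the genes. Among main regions, CCNA2 had the lowest GC content, 43.1%, lower than in most promoters (higher than 11.1% of them), and CDK6 the highest, 58.1%. For CCND3 the main region was the one shared with TAF8, and its region at the canonical start had a GC content of 59.7%. The observed over expected frequency of CpG was 0.776 in the CDK6 region, 0.762 in CCNE2, 0.734 in CCND3 and 0.638 in CCNA2, all above the promoter median of 0.589. In the CCND3 region at the canonical start it was 0.664. It was 0.450 in CDK4, 0.337 in CDK2 and 0.296 in CCNE1, and the CCNE1 value was higher than only 6.84% of promoters. That CCNE1 region held none of the start sites of the gene, so its value does not describe the sequence at the start.

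Other cyclins and CDKs with their regulators, CDK inhibitors, and pocket protein and E2F genes were described by the same measure. Of 18 other cyclins, CDKs and regulators of these, CDC25 phosphatases included, 17 had a main region, with a median of 23.3 per kb. Among these, 10 lay above the median promoter. The list was not limited to genes acting from G1 into S phase, and CCNC, CDK5, CDK8 and CDK9 are in it. The phosphatase gene CDC25A (38.0) and CCNH (34.0), the cyclin of the CDK-activating kinase, were highest, and CCNA1 (8.43) and CDC25B (12.6) lowest. Main regions of 6 of the 17, those of CDC25A, CCNA1 and CDC25B among them, did not hold the canonical start site. All 8 CDK inhibitor genes had a region, 4 above the median promoter, with a median of 20.04 per kb. CDKN2B, which encodes the CDK4 and CDK6 inhibitor p15, stood at 58.8 per kb, higher than 99.3% of promoters, and CDKN1B at 25.01, whereas CDKN2D (8.30) and CDKN1A (11.7) were lowest. Main regions of 3 of the 8, that of CDKN2D among them, did not hold the canonical start site. The 13 genes of pocket proteins, E2F and DP factors all had a region, 9 above the median promoter, with a median of 28.7 per kb. The pocket protein gene RBL1 (47.0) and E2F5 (45.0) were highest, and E2F1 (9.77) and E2F4 (14.5) lowest. Main regions of 6 of the 13, those of E2F5 and E2F1 among them, did not hold the canonical start site. The median of the G1 and S phase cyclins and CDKs, 17.9 per kb, was below the medians of these 3 lists, and this difference was not tested.

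**Figure D5:**
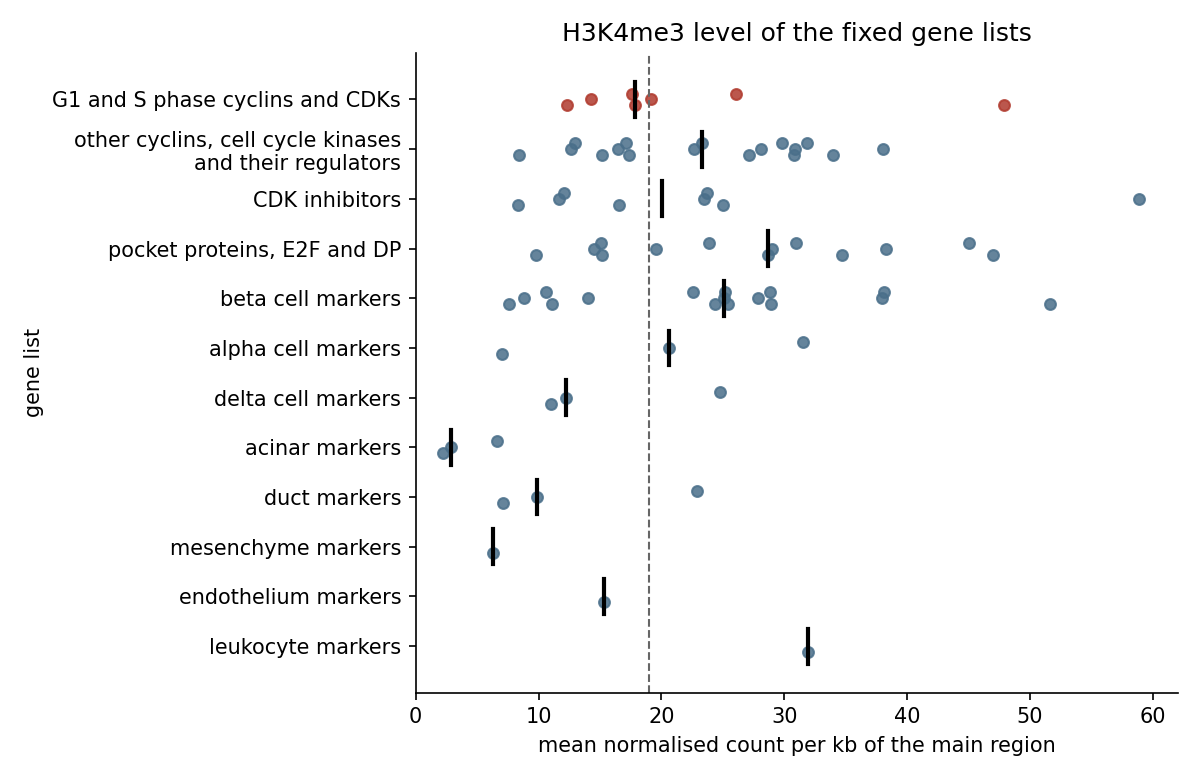
Mean normalised count per kb of the main region of each gene, by gene list, with the G1 and S phase cyclins and CDKs in red. Black bars are list medians and the dashed line is the median of all promoters (19.0 per kb). Points are spread vertically within a list for legibility, and acinar markers lie at the far left.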

How the data were processed

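MINT-ChIP reads were aligned to hg38 with Bowtie2 and processed with samtools by the authors, who found H3K4me3 peaks with HOMER and compared regions with DESeq2. How peaks were merged across samples and how reads were counted is not given in the sources used here. The deposited signal is the mean normalised count of each of 97545 regions, that is, read counts divided by size factors and averaged by the authors over 8 samples. The further columns, which hold fold changes of the authors' comparison with standard errors, statistics and p-values, were not used. Depth per sample is unknown. A level per kb depends on where the authors' region edges lie.

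Start sites came from GENCODE 44 transcripts of the protein-coding type, and 97545 regions lay within hg38 chromosome lengths. Coordinates are those of the deposited table, whose first base convention is not stated, so distances may be off by 1 bp. Promoter sequences came from RefSeq (GRCh38.p14), matched by symbol for 5 of 9 genes. A protein comparison was planned and not run, because protein sequences were not used here.

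Alternatives were windows of 1 kb and 5 kb, the canonical start alone, the region nearest to it, all regions summed, promoters with a mean normalised count of at least 10, and each distinct region once. After the data were seen, starts of every transcript of a protein-coding gene were also run, as were those of the 9 genes whose main region holds no other protein-coding start. The start-site definition was settled with its effect on CDK2 in view. Named genes were the 9 genes, genes sharing their regions, neighbours in rank, and genes from the lists. The 2 highest and 2 lowest were named for beta cell markers, other cyclins and CDKs, CDK inhibitors, and pocket proteins with E2F. INS, TTR, COL1A1, PECAM1, CD68, RAB5B, PAX6, SLC30A8, CDKN2A and CDKN2C were named besides, after their values were seen. MAFA and PPY were named as markers with no listed region, and CCNC, CDK5, CDK8 and CDK9 to show the scope of their list. Members and lists were chosen with earlier results of these data known. Python 3.11.15, numpy 2.4.6, pandas 2.3.3 and matplotlib 3.10.9 were used, and the code was tested on simulated data.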

Additional observations from a re-analysis of the deposited data

How the results depend on the processing

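The number of genes with a region at a start site was 7 with windows of 1 kb and 5 kb, with the canonical start alone and with starts of every transcript. The number above the median promoter per kb was 3 (CCND3, CDK2 and CCNA2), and 2 among promoters with a mean normalised count of at least 10, where CDK2 fell below a median of 20.9. With the region nearest the canonical start it was again 3, but CCND3 fell to 10.8 per kb and CDK4, unchanged at 17.87 per kb, lay just above a median that had moved to 17.84. An alternative chosen after seeing the data kept only CDK4, CDK6, CCNE1 and CCNA2, whose main regions hold no start of another protein-coding gene. The number was then 1 (CCNA2), since CCND3 and CDK2 share their regions and were left out, as was CCNE2. Over all promoters, 23.1% had a main region that was also the main region of another gene, a related but not identical measure. The median stayed that of all promoters, 19.0 per kb. Of 70 values of single genes under 5 alternatives, 62 were unchanged and 8 moved, in 3 genes. For the 5 genes with 1 region, the nearest region and the sum could not differ from the main value, so this tally does not measure stability. CCND3 moved to a mean normalised count of 32.2 with the nearest region and 145.5 with regions summed (23.4 per kb), and CDK4 to 67.5 with regions summed (14.9 per kb). CDK2 moved from 52.5 to 85.1 with starts of every transcript, also chosen after seeing the data, while its level per kb went from 19.1 to 19.3. The level of CCND3 therefore depends on the region taken. No paired analysis was possible because the values are means pooled over all samples, and leaving out a replicate was not possible for the same reason. Depth limits cannot be given without counts per sample.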

Other observations

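Region width was also compared between the gene lists, a feature chosen after the values were seen. Of the 16 beta cell markers with a main region, 9 had one wider than 5849 bp, the width that 5% of all promoters exceed. So did 2 of 8 CDK inhibitor genes and 1 of 3 alpha cell markers (TTR, 6435 bp). The count was 0 in each of the other lists, among them 0 of 7 G1 and S phase cyclins and CDKs, 0 of 17 other cyclins, CDKs and regulators, and 0 of 13 pocket protein, E2F and DP genes. The widest belonged to PAX6, a transcription factor of endocrine cells, at 23885 bp, and to the zinc transporter gene SLC30A8 at 19456 bp. Their levels per kb were 27.8 and 24.3. Among the CDK inhibitors, the region at CDKN2C, which encodes p18, was 13277 bp wide with a mean normalised count of 312.0 (23.5 per kb), and that at CDKN2A, which encodes p16 and ARF, was 8322 bp wide with 197.4 (23.7 per kb) and did not hold the canonical start site of the gene.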
